A study of Mus musculus with 8 samples.

Results

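Expression of 10 genes that mark intestinal stem cells was examined in whole small intestine taken from mouse embryos at stage E18.5, shortly before birth. The genes were Lgr5, Olfm4, Ascl2, Axin2, Sox9, Smoc2, Rgmb, Lrig1, Bmi1 and Tnfrsf19, and the members were every non-control probe of the array that carries 1 of these names. This gave 15 probes of 55681 distinct probes on the array, with 2 probes each for Axin2, Rgmb, Lrig1, Bmi1 and Tnfrsf19 and 1 each for the other 5 genes. The study deleted Rfx6, a transcription factor of gut endocrine cells, and compared 4 control embryos with 4 mutants on single-colour Agilent arrays. Controls 1, 3 and 4 were Rfx6 fl/+ and control 2 was Rfx6 fl/fl. All 4 mutants were Rfx6 fl/fl Ngn3-cre, in which the recombinase is driven by Ngn3 and so acts in endocrine progenitors and the cells derived from them. Floxed alleles were thus present in every embryo, and Cre is named in the mutant labels alone, so effects of Cre and of Rfx6 loss cannot be told apart. The descriptions of mutants 2, 3 and 4 name Rfx genes other than Rfx6, while their titles and the series' design give Rfx6, which was followed here. The labels give each array as a replicate and do not name litters, so p-values measure the spread between these arrays.

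Intestinal stem cells sit at the base of the crypts in the adult and divide to renew the epithelium, giving rise to absorptive cells and to secretory cells, among them the endocrine cells. They are kept by Wnt signalling, which R-spondins amplify through Lgr receptors, and by Notch signalling. Before birth the mouse intestine has no mature crypts, and proliferating epithelial cells that express many of the same genes lie between the villi. Endocrine progenitors that express Ngn3 arise from these cells, which places these cells upstream of those in which Rfx6 was deleted. Several of the 10 genes are also expressed outside the epithelium, so their signal in whole intestine is not from these cells alone.

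A level is given here on the log2 scale, as processed intensity relative to the 75th percentile of its array, which was an intensity of 788 to 1027 across the arrays. Levels of different probes depend on the probe and are not compared with each other. The arrays other than mutant replicate 1 had mean correlations with the rest of 0.989 to 0.990 across probes, against 0.975 for mutant replicate 1, so differences are also given without that array. On that array 3406 tested probes were under the other mutants' median by over 2-fold, and on the other 7 arrays the same count against their own group was 130 to 403. The Rfx6 probe was at -3.48 to -2.93 in controls, at -5.52 in mutant replicate 1 and at -3.37 to -3.02 in the other mutants, so it does not check the labels, and whether it lies in the deleted part is not given. In the same fit 5 of 10 endocrine genes, the hormone genes Gip, Ghrl, Sst, Gcg and Cck, fell in the mutants, with log2 differences of -8.02 (Gip) to -2.49 (Cck) and limma adjusted p of 6.25e-06 to 1.60e-04. The Gip probe was well above background on 5 of 8 arrays, at 1.85 to 2.38 in controls and -6.41 to -5.05 in mutants. It passed the filter on dim probes mainly through the controls, where it was high, so its difference is not taken as support. Neurog3, the gene also called Ngn3, was at 0.047 to 0.23 in controls and 0.72 to 1.03 in mutants, a difference of 0.76 (SE 0.099) that did not pass (limma adjusted p = 0.0861). Tph1, an enzyme of serotonin synthesis, also did not overlap and did not pass, with a difference of 0.60 (SE 0.12, limma adjusted p = 0.357), and Neurod1 differed by 0.49 (SE 0.36), with overlap. Markers of intestinal epithelium were present, with all 12 of 12 listed genes tested and a median difference of 0.022.

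All 15 stem cell probes passed the filter on dim probes, and 13 of them were well above background on all 8 arrays. Their readout rests on 60-base probes, of which bases 1 to 30 are shown for Lgr5 and Axin2, the standard readouts of these cells and of Wnt signalling, for Sox9, where the mutants split into pairs, and for Bmi1, where mutant 1 stood apart. Capitals mark G and C.
Lgr5: CatGtaaataCGtaGtGCttGtaaataGat
Axin2 probe 1: CttGGtaCaataattattGtaattaaGaGa
Axin2 probe 2: tCCtGGGGGaaCaGattattattGCtaCtC
Sox9: ataaaaCCttaaaGCGttCttataatatGG
Bmi1 probe 1: GCtttGtCttGCttGtaGCCattaaatCat
Bmi1 probe 2: tGGtGaatttaaCtCatttttCtaGaCttt
Over the whole probe, G and C made up 35% of the bases for Lgr5 and for both Bmi1 probes, 30% for Sox9, and 20% and 48.3% for Axin2 probes 1 and 2.

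None of the 10 genes passed the test between the groups. Of the 15 probes, 0 passed a limma adjusted p of 0.05 (lowest 0.828, highest 0.993), and 0 had an unadjusted p under 0.05, against 15 of 35471 tested probes (0.0423%) called and 5.05% with an unadjusted p under 0.05 over the array. The 4 controls and 4 mutants overlapped for all 15 probes, while for 4.38% of tested probes they did not. In the mutants 9 probes were higher and 6 lower, with a median difference of 0.034, and over all tested probes 55.4% were higher with a median of 0.024. The 95% intervals bound what the arrays could miss: for 14 of 15 probes the interval lay within a 2-fold change in either direction, and for 9 it lay within 1.5-fold. The widest interval, of Bmi1 probe 2, allowed a level up to 2.11-fold lower in the mutants. Fewer cells of a type and less RNA per cell cannot be told apart in whole intestine.

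**Figure D1:**
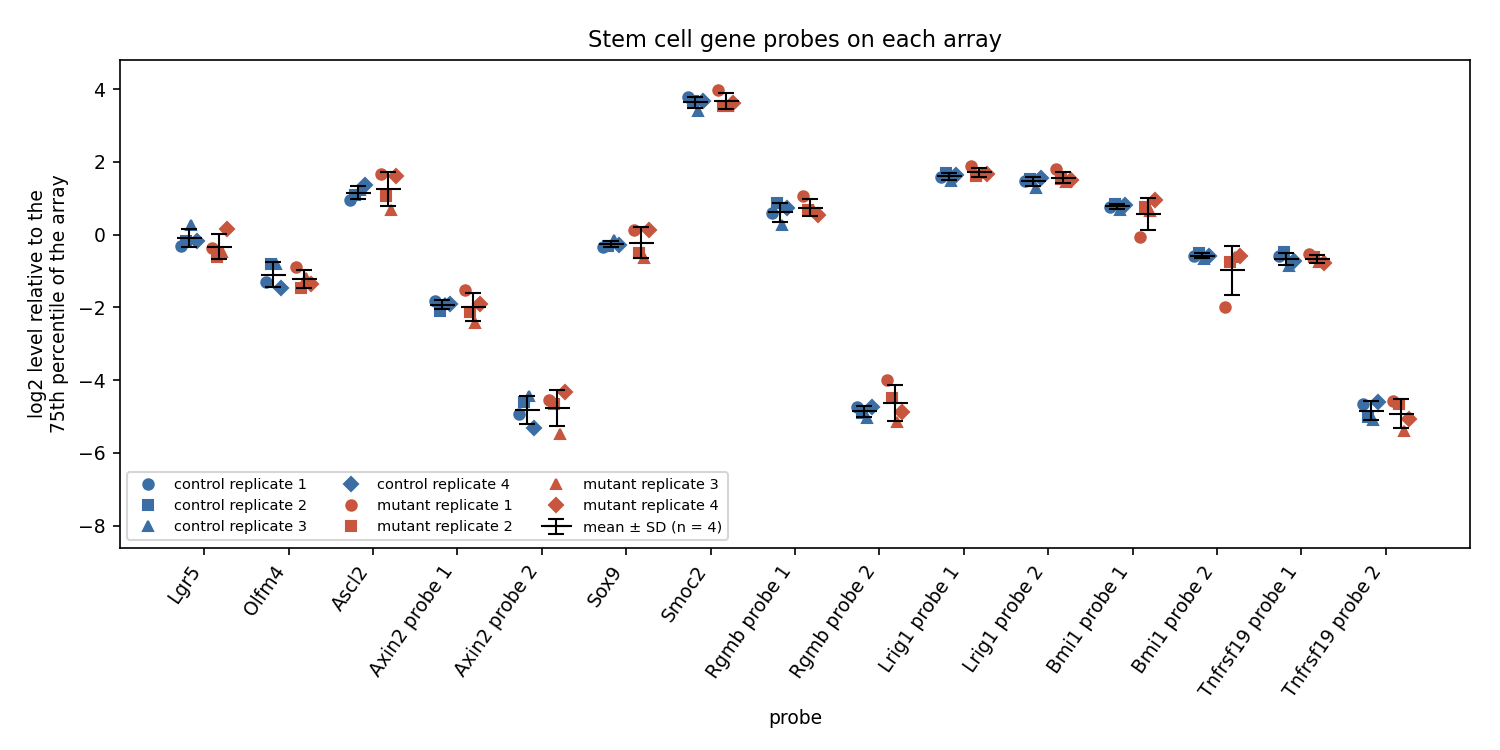
Log2 level of each of the 15 probes relative to the 75th percentile of its array, for 4 controls (blue) and 4 mutants (red), with a symbol for each replicate and black bars for mean ± SD (n = 4). The 2 groups overlap at every probe, and mutant replicate 1 lies apart at both Bmi1 probes.

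Among the receptors and membrane proteins, Lgr5, the receptor for R-spondins that defines the cycling stem cells, had a lower mean in the mutants that did not pass the test. Its probe (chromosome 10, 114887403 to 114887462, mm9, as are all positions here) was at -0.31, -0.17, 0.25 and -0.18 in controls 1 to 4 and at -0.36, -0.62, -0.48 and 0.15 in mutants 1 to 4. Mutants 1, 2 and 3 lay below every control, and mutant 4 lay above 3 of the 4 controls, so the groups overlap. The difference was -0.23 (SE 0.19, 95% interval -0.66 to 0.21, limma adjusted p = 0.828) and it was -0.21 without mutant replicate 1. Without mutant replicate 4 it was -0.39, with a limma adjusted p of 0.679 and an unadjusted limma p of 0.0391. In that fit 2439 of 35471 tested probes had an unadjusted limma p under 0.05, and 1 of the 15 member probes did.

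Tnfrsf19, a receptor of the tumour necrosis factor family also known as Troy, showed the closest group means. Probe 1 (chromosome 14, 61582873 to 61582932) was at -0.59, -0.48, -0.88 and -0.74 in controls and at -0.53, -0.61, -0.76 and -0.77 in mutants. All 4 mutants lay within the range of the controls, and the difference was 0.0044 (SE 0.12, 95% interval -0.26 to 0.27), or -0.041 without mutant replicate 1. Probe 2 (61589667 to 61589726) was dim, from -5.09 to -4.59 in controls and from -5.40 to -4.56 in mutants, and was not well above background in mutant 3. Its difference was -0.088 (SE 0.21), or -0.21 without mutant replicate 1.

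Lrig1, a membrane protein that restrains signalling by ErbB receptors and marks a partly separate stem cell pool, had 2 probes whose differences were alike (chromosome 6, 94554811 to 94554870 and 94554523 to 94554582). Probe 1 was at 1.58, 1.69, 1.48 and 1.65 in controls and at 1.89, 1.62, 1.70 and 1.66 in mutants. Probe 2 was at 1.48, 1.52, 1.29 and 1.56 in controls and at 1.80, 1.54, 1.44 and 1.5 in mutants. Mutant 1 was the highest array at both. The differences were 0.12 (SE 0.098, 95% interval -0.11 to 0.34) and 0.11 (SE 0.11, -0.15 to 0.36), and 0.061 and 0.029 without mutant replicate 1. The within-group spread of probe 1 was small, at the 10.3th percentile of all tested probes, and its interval allowed at most 1.27-fold higher and 1.08-fold lower.

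Rgmb, a membrane-anchored co-receptor for bone morphogenetic proteins, was read by a bright probe 1 (chromosome 17, 15941859 to 15941918) and a dim probe 2 (15943973 to 15944032). Probe 1 was at 0.61, 0.88, 0.26 and 0.73 in controls and at 1.07, 0.69, 0.67 and 0.53 in mutants, a difference of 0.12 (SE 0.16, limma adjusted p = 0.856). Probe 2 ranged from -5.05 to -4.73 in controls and from -5.16 to -4.01 in mutants, and the means differed by 0.23 (SE 0.23), with a limma adjusted p of 0.828. Mutant 1 was the highest array at both probes, and without it the differences were 0.010 and 0.020.

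Of the secreted proteins, Olfm4, a glycoprotein that marks crypt base cells of the adult and responds to Notch, varied among embryos of both groups. Its probe (chromosome 14, 80421398 to 80421457) was at -1.31, -0.80, -0.81 and -1.48 in controls and at -0.89, -1.47, -1.20 and -1.35 in mutants. All 4 mutants lay within the range of the controls, where controls 2 and 3 were high and controls 1 and 4 low. The difference was -0.13 (SE 0.19, 95% interval -0.57 to 0.32, limma adjusted p = 0.870), and -0.24 (SE 0.19) without mutant replicate 1.

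Smoc2, a secreted matrix protein that binds calcium, is also made by mesenchymal cells. Its probe (chromosome 17, 14541664 to 14541723) was at 3.79, 3.66, 3.41 and 3.67 in controls and at 3.99, 3.54, 3.53 and 3.61 in mutants. Mutant 1 was the highest array and the other mutants lay within the range of the controls. The difference was 0.034 (SE 0.14, 95% interval -0.28 to 0.34) and -0.073 without mutant replicate 1.

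**Figure D2:**
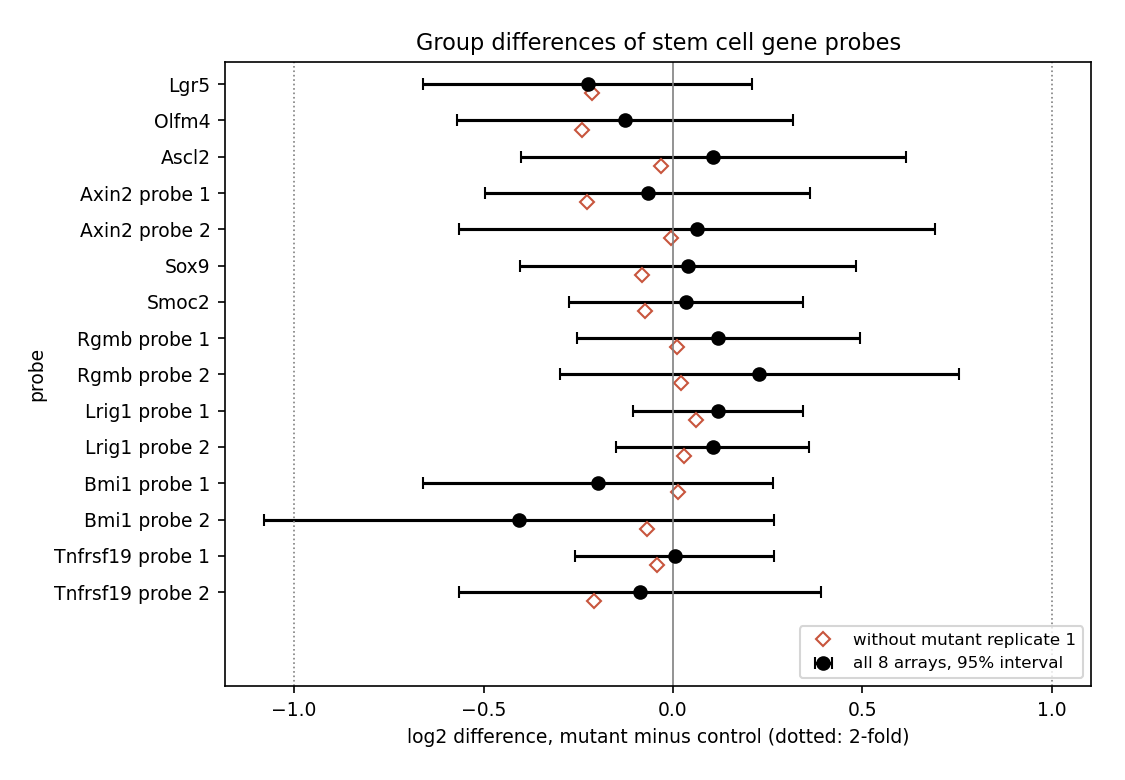
Log2 difference between group means, mutant minus control, for each probe with its 95% interval (black), and the same difference without mutant replicate 1 (red diamonds). All 15 intervals include 0, 14 lie between the dotted lines at 2-fold, and both Bmi1 differences move close to 0 without mutant replicate 1.

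Axin2, a scaffold of the complex that degrades beta-catenin and a standard readout of Wnt signalling, did not pass the test at either probe. Probe 1 (chromosome 11, 108812034 to 108812093) was at -1.81, -2.11, -1.87 and -1.91 in controls and at -1.51, -2.13, -2.44 and -1.89 in mutants. Mutant 1 was above and mutants 2 and 3 below every control. The difference was -0.067 (SE 0.19, 95% interval -0.50 to 0.36, limma adjusted p = 0.932) and moved to -0.23 (SE 0.14, limma adjusted p = 0.849) without mutant replicate 1. Probe 2 (108803927 to 108803986) was dim, at -4.94, -4.60, -4.42 and -5.30 in controls and at -4.55, -4.66, -5.47 and -4.34 in mutants, and was not well above background in control 4 and mutant 3. Its difference was 0.062 (SE 0.28), of the other sign, or -0.0064 without mutant replicate 1.

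The transcription factor Ascl2, which controls stem cell fate in the crypt and is itself a Wnt target, spread more widely among mutants than among controls. Its probe (chromosome 7, 150152734 to 150152793) was at 0.94, 1.09, 1.22 and 1.36 in controls and at 1.67, 1.06, 0.69 and 1.61 in mutants. Mutants 1 and 4 were above every control and mutant 3 below every control. The difference was 0.11 (SE 0.22, 95% interval -0.40 to 0.61, limma adjusted p = 0.909) and -0.031 without mutant replicate 1.

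Sox9, a transcription factor of crypt progenitors and also of Paneth cells, showed the same split more fully. Its probe (chromosome 11, 112648809 to 112648868) was at -0.33, -0.31, -0.14 and -0.27 in controls and at 0.14, -0.52, -0.65 and 0.13 in mutants. Mutants 1 and 4 lay above all controls and mutants 2 and 3 below all controls, so the means nearly cancelled, with a difference of 0.040 (SE 0.19, 95% interval -0.40 to 0.48, limma adjusted p = 0.963), or -0.082 without mutant replicate 1. The SD was 0.089 among controls and 0.42 among mutants (n = 4 each). The array carries 10 spots of this probe, and after outlier spots were left out the SD among spots of 1 array was 0.050 to 0.092, with mutants 1 and 4 at nearly the same mean. Spots of 1 array share the same labelled RNA and are not replicates of an embryo.

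**Figure D3:**
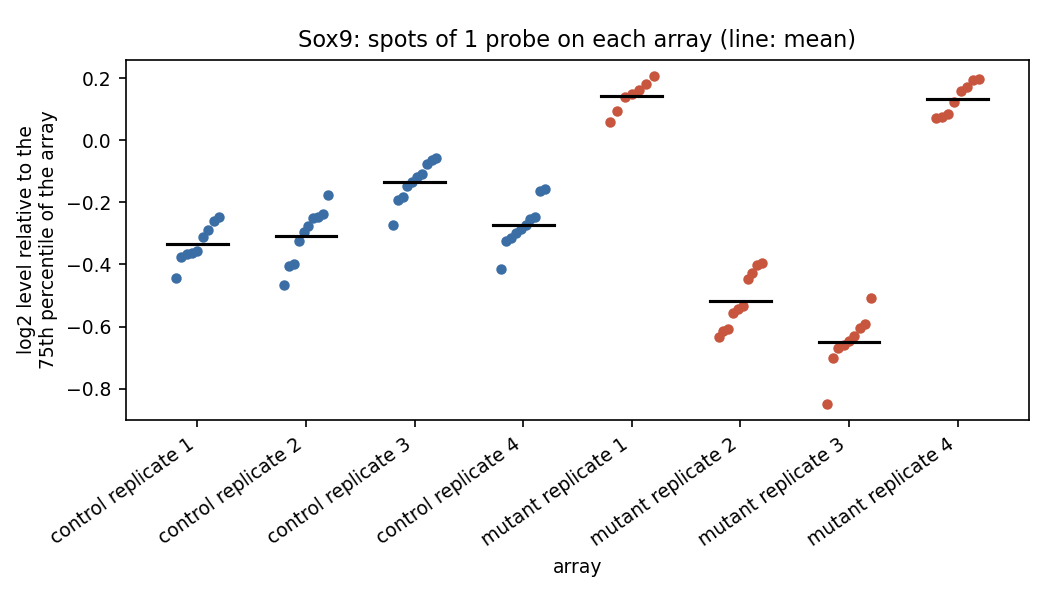
Log2 level of each Sox9 spot relative to the 75th percentile of its array, sorted within the array, for 4 controls (blue) and 4 mutants (red), with the array mean as a line. Spot readings of mutants 1 and 4 lie above the control means and those of mutants 2 and 3 below them.

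The same order, with mutants 1 and 4 above and mutants 2 and 3 below all controls, was found at 230 of 35446 probes with a value on all arrays (0.649%). This order was taken from the Sox9 values after they were seen. Any 2 mutants above and the other 2 below all controls were found at 620 probes (1.75%). Among the other lists of related genes the Sox9 order was found at Sp5, a transcription factor induced by Wnt, and at Cdca7, a gene of proliferating crypt cells. Each was 1 of 16 tested genes of its list. Both were singled out after their values were seen. Sp5 was at -4.45 to -3.82 in controls and at -3.50, -4.66, -4.54 and -3.49 in mutants. Cdca7 was at 2.422 to 2.710 in controls and at 2.960, 2.417, 2.338 and 2.726 in mutants, so mutants 2 and 4 lay barely outside the controls. The group means of both were close, with differences of 0.027 (SE 0.30) and 0.017 (SE 0.15).

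Bmi1, a subunit of Polycomb repressive complex 1 once used as a marker of slow-cycling stem cells and widely expressed in other tissues, gave the largest single difference of the 15 probes, at probe 2, and mutant 1 set both of its differences. Probe 1 (chromosome 2, 18607531 to 18607590) was at 0.76, 0.85, 0.68 and 0.81 in controls and at -0.059, 0.76, 0.66 and 0.95 in mutants. Probe 2 (18607987 to 18608046) was at -0.58, -0.51, -0.66 and -0.58 in controls and at -1.996, -0.74, -0.63 and -0.58 in mutants. Mutant 1 was the lowest array at both probes, and the other mutants lay in or near the range of the controls. The differences were -0.20 (SE 0.20, 95% interval -0.66 to 0.26) and -0.41 (SE 0.29, -1.08 to 0.27), both with a limma adjusted p of 0.828. Without mutant replicate 1 they were 0.014 (SE 0.092) and -0.070 (SE 0.074).

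Mutant 1 read low against the other mutants at both Bmi1 probes and high at the rest. Its deviation from the median of the other mutants was -0.82 and -1.37 at Bmi1 probes 1 and 2 and 0.11 to 0.87 at the other 13 probes. The Lgr5 and Smoc2 probes have the same G and C content as both Bmi1 probes, 35%, and deviated by 0.12 and 0.44 there. Whether base content plays a part in the low Bmi1 readings was not tested. Mutant 1 was the highest of the mutants at 11 of 15 probes, against 51.0% of all tested probes. Mutant 3 was the lowest of the mutants at 8 of 15 probes, against 27.9%, and it lay below every control at 8, against 23.5%. Probes of 1 gene share a transcript, so these counts do not stand for 15 independent readings. With 1 probe per gene, mutant 3 was the lowest mutant at 4 of the 10 genes. In other lists it was lowest at 7 of 12 epithelial, 8 of 12 mesenchyme and 1 of 8 tested Paneth cell genes. Mutant 3 was not well above background at Axin2 probe 2 and Tnfrsf19 probe 2. Without mutant replicate 1, 10 probes were lower and 5 higher, 6 having changed sign, and the median difference was -0.041, beside 0.0033 over all tested probes.

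**Figure D4:**
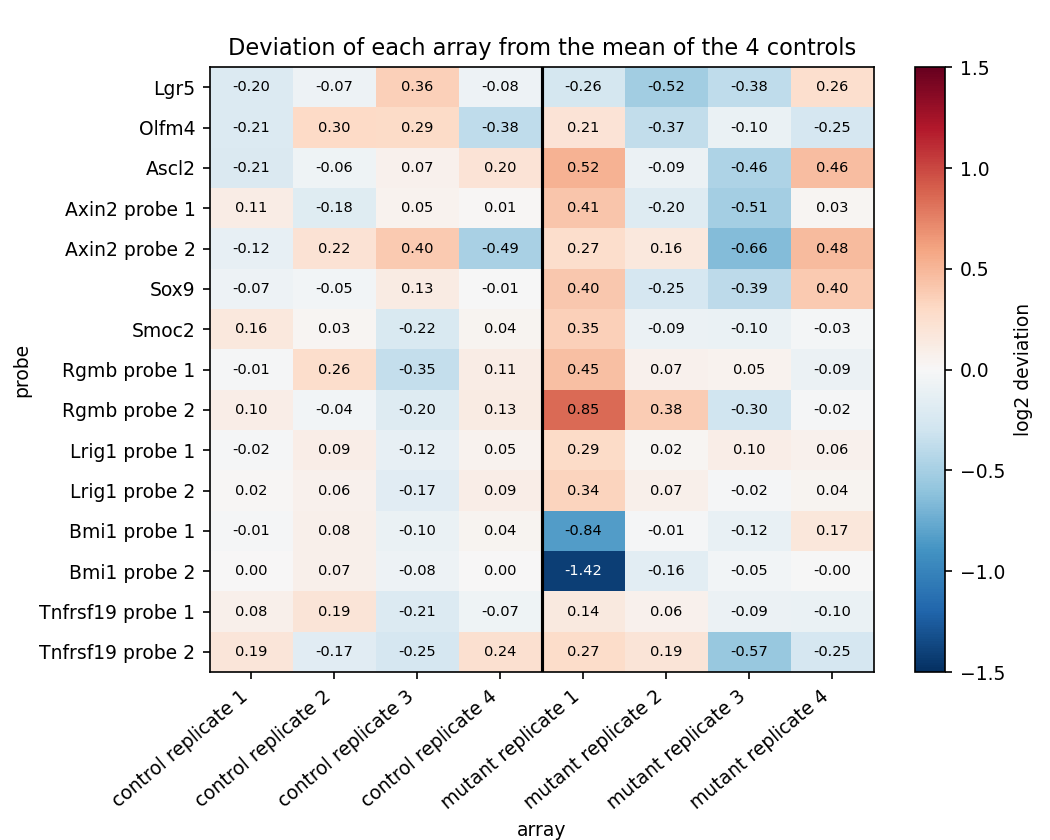
Log2 deviation of each array from the mean of the 4 controls for each probe, with red above and blue below that mean. Mutant replicate 1 is red at 12 of 15 probes and blue at both Bmi1 probes and Lgr5, and at Sox9 mutants 1 and 4 are red and mutants 2 and 3 blue.

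The SD within the group was higher in mutants than in controls for 12 of 15 probes, against 72.5% of all tested probes. Without mutant replicate 1 this held for 9 of 15, against 45.6%. Control 2, the control with 2 floxed alleles, was the highest control at 6 of 15 probes and the lowest at 1, against 22.9% and 23.0% of all tested probes. Without it 0 of 15 probes had an unadjusted p under 0.05, and the lowest unadjusted limma p was 0.221, of Lrig1 probe 1.

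Genes related to the 10 were then counted by list. For these lists each gene was read from its brightest tested probe, and over all 25330 genes 0.0592% were called and the groups did not overlap for 4.67% (1.63% lower and 3.04% higher in mutants), with a median difference of 0.031. Of 18 further genes of crypt base stem cells 16 were tested and 0 passed, with 10 higher, 6 lower and a median of 0.015. The groups did not overlap for 3 of these. Slc12a2, a sodium, potassium and chloride cotransporter of crypt cells, was at 3.55 to 4.16 in controls and 3.14 to 3.51 in mutants, a difference of -0.40 (SE 0.15, limma adjusted p = 0.828). Zbtb38 had a difference of -0.31 (SE 0.17) and the ephrin receptor gene Ephb3 one of 0.33 (SE 0.15), both with mutant 1 the most distant array. Nrn1, among the brightest of the list, differed by 0.063 (SE 0.092).

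Of 16 Wnt target and feedback genes all were tested and 0 passed, with 11 higher, 5 lower and a median of 0.062. Tcf7, which encodes a DNA-binding partner of beta-catenin, was the gene without overlap, at -2.849 to -2.625 in controls and -3.102 to -2.853 in mutants. The groups barely separated, since the lowest control and the highest mutant were nearly equal. The difference was -0.21 (SE 0.096, limma adjusted p = 0.828). The bright genes of the list were close between groups, with differences of 0.16 (SE 0.15) for Notum, an enzyme that inactivates Wnt ligands, -0.011 (SE 0.096) for Nkd2 and 0.096 (SE 0.13) for Ccnd1. Of 5 genes of slow-cycling or reserve stem cells 0 passed, and 4 were higher, with a median of 0.23, while 57.2% of all genes were higher. The list's Hopx differed by -0.12 (SE 0.11), Krt19 by 0.23 (SE 0.11) and Clu, which encodes clusterin, by 0.44 (SE 0.16, limma adjusted p = 0.828).

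**Figure D5:**
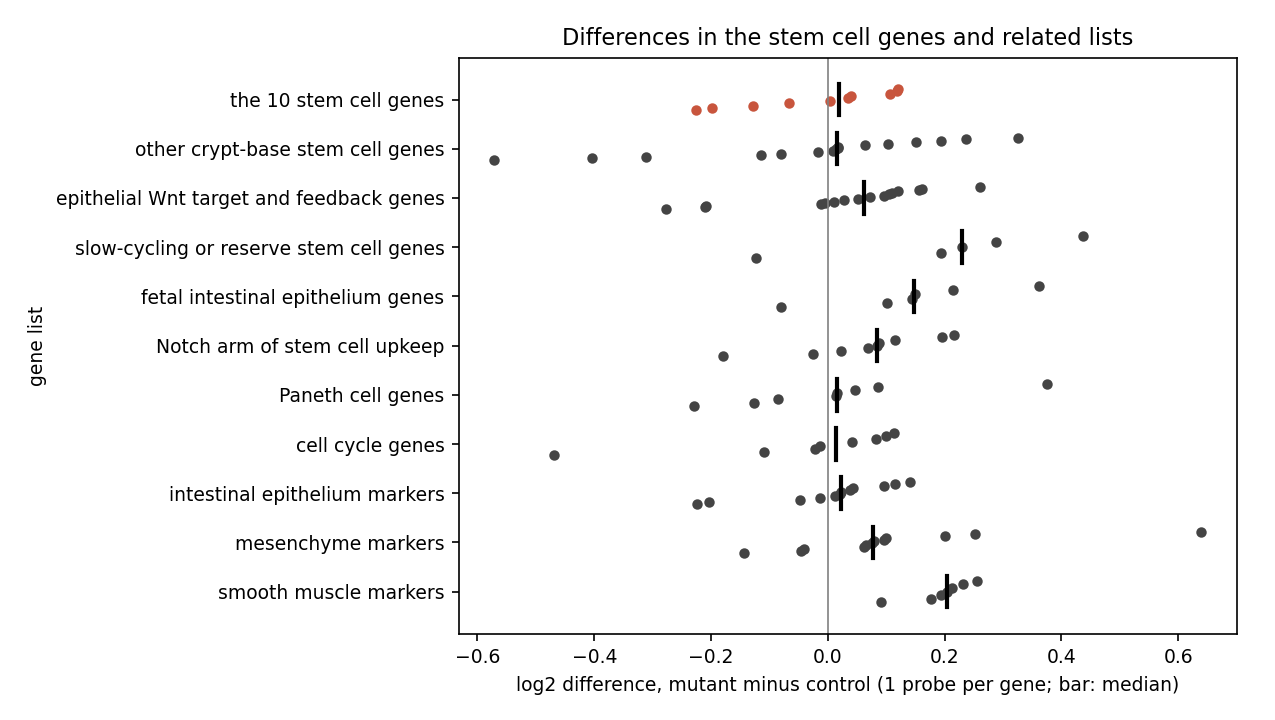
Log2 difference, mutant minus control, of each tested gene in 11 lists, read from its brightest probe, with the list median as a bar and the 10 stem cell genes in red. No gene shown passed the test, the 10 stem cell genes lie between -0.23 and 0.12, and all 7 smooth muscle genes lie above 0. At those 7 genes mutant replicate 1 was the highest mutant and control replicate 3 the lowest control.

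In the remaining lists of the stem cell surroundings 0 genes passed. The medians were 0.085 for 9 Notch genes, 0.15 for 6 tested genes of fetal intestinal epithelium, 0.015 for 8 tested Paneth cell genes and 0.013 for 8 cell cycle genes. Of the brightest genes in these lists, Notch2 differed by 0.19 (SE 0.14), Anxa1 by 0.14 (SE 0.22), Defa1 by 0.016 (SE 0.13) and Mcm6, a replication helicase subunit, by -0.014 (SE 0.12).

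Several of the 10 genes are also expressed outside the epithelium, so markers of other cells are given beside them. Summed intensity in multiples of the 75th percentile was 1344 to 1389 in controls and 1228 to 1513 in mutants for 12 epithelial genes, and 206 to 269 and 231 to 282 for 12 mesenchyme genes. Such a sum adds different probes, so the brightest probes set most of it. In the epithelial list these were Fabp2 and Fabp1, and in the blood list, given below, Hba-a1 was by far the brightest. The sums are therefore not measures of how much of a cell type was present. For 7 smooth muscle genes the sum was 248 to 374 and 344 to 471, with 7 of 7 higher and 0 called. Mutant 1 was the highest mutant at all 7, and control 3 was the lowest control at each of them. The mesenchyme genes Foxl1 (0.25, SE 0.10) and Twist1 (0.64, SE 0.22) did not overlap between groups, and neither passed (limma adjusted p = 0.828 for both). Of 8 tested pancreas genes 6 were higher and 0 passed, though 7 had an unadjusted limma p under 0.05, against 5.08% of all genes. The 2 lower genes were the insulin genes Ins1 (-0.43, SE 0.15) and Ins2 (-0.10, SE 0.17), and Ins1 was among those 7. The summed intensity of the list was 1.26 to 2.53 in controls and 3.10 to 14.2 in mutants. Amy2a5 and Cela2a, genes of pancreatic enzymes, did not overlap between groups. Cela2a was at -8.26 to -7.50 in controls and -5.11 to -2.12 in mutants, and was well above background on 4 arrays. It passed the filter on dim probes only through the mutants, where it was high, so its lack of overlap is not support for a difference. The 7 pancreas genes with an unadjusted limma p under 0.05 and the summed intensity of the list include Cela2a. Neither is taken as support for a difference. The summed ranges were 8.93 to 13.7 and 11.1 to 13.6 for enteric neurons and glia, 8.31 to 8.65 and 8.61 to 12.2 for endothelium, 102 to 217 and 107 to 172 for blood, and 0.242 to 0.275 and 0.221 to 7.63 for stomach. As with smooth muscle, all 5 endothelium genes were higher in the mutants, with a median of 0.17 and 0 called. Mutant 1 was the highest mutant at 4 of them. Of 8 stomach genes 4 were tested, and the 7.63 came mostly from Tff2 in mutant 3. Tff2 was at 2.89 there and at -4.47 to -2.94 in the other mutants. The part of these other cells in the levels of the 10 genes was not tested.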

How the data were processed

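Expression was measured in 8 samples, 4 control and 4 mutant, each on 1 array of 1 slide. Per the labels' protocols, RNA (100 ng) was amplified to cRNA carrying cyanine 3. Per the file headers and the submitters' processing notes, the authors read spots with Agilent Feature Extraction 10.10.1.1 and deposited linear intensity values, background-corrected and detrended within the array and not normalised between arrays. A deposited table of linear intensity values with no stated processing has the same quartiles in all columns and was used as an alternative.

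From these, log2 processed intensity minus that of the 75th percentile of 59305 non-control spots was computed. Outlier spots were left out (117 to 157 per array, 7 of 192 member readings), no non-control spot was saturated, and spots of a probe were averaged. A probe was tested when at least 50% of its spots were well above background on at least 4 of 8 arrays (35471 probes, 20210 dropped). Mutants were set against controls in limma 3.58.1 under R 4.3.3, by lmFit and eBayes without covariates. Tests were two-sided, p-values were adjusted by the Benjamini-Hochberg method across every tested probe, and the threshold was 0.05. The fit was tested on simulated data. Names follow RefSeq accessions (GRCm38.p6) for 26582 probes and older symbols for 492. All 15 member probes kept their symbol, and 0 other probes gained one. Arrays give no read depth, and their number limits the precision. The members and lists were chosen with earlier results of these data known. Named besides the members are Rfx6, list genes that were called or whose groups did not overlap, and some of the 3 brightest genes of each list. Sp5 and Cdca7 fall outside this rule and were named after their values were seen, as were Neurod1 and Ins1. The values of 1 list gene without overlap are not reported here. Alternatives were another background correction, 2 scalings, the deposited table, 2 filters, 1 probe per gene, the slide row or the replicate number as a block, array weights and each array left out.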

Additional observations from a re-analysis of the deposited data

Results flagged for a closer look

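In 30 groups of 4 arrays (15 probes in 2 groups), 1 had an extreme value whose gap to its nearest neighbour passed Dixon's 95% critical value, and chance at 1 in 20 would give 1.5. It was mutant replicate 1 at Bmi1 probe 2, at -1.996 against -0.74 to -0.58 in the other mutants.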

How the results depend on the processing

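The count of stem cell genes that passed in limma was 0 of 10 as reported and in all 18 alternatives, with a lowest adjusted p over the alternatives of 0.617 (Lgr5, array weights). At an unadjusted p under 0.05 the count of member probes was 0 of 15 as reported and in 17 alternatives and 1 without mutant replicate 4, Lgr5. Over the whole array that fit had 2439 of 35471 tested probes under this threshold. Over the whole array 15 probes passed, 24 under normexp background correction, 44 with array weights and 9 to 20 with 1 array left out, the 9 without control replicate 2 and without mutant replicate 3. With arrays weighted by their fit (0.120 for mutant replicate 1), the difference changed sign for Rgmb probe 1 (-0.015), Sox9 (-0.14), Smoc2 (-0.080), Tnfrsf19 probe 1 (-0.020) and Ascl2 (-0.10). With 1 array left out, signs changed within ranges of -0.23 to 0.082 and -0.10 to 0.30 for Axin2 probes 1 and 2, -0.082 to 0.18 for Sox9, -0.073 to 0.087 for Smoc2, -0.031 to 0.30 for Ascl2, -0.32 to 0.014 for Bmi1 probe 1, and -0.064 to 0.069 and -0.21 to 0.072 for Tnfrsf19 probes 1 and 2. Lgr5, Olfm4, Lrig1 (both probes), Bmi1 probe 2 and Rgmb probe 2 kept their sign in every alternative in which they were tested. The cause of these changes was not tested. The labels number both groups 1 to 4, but same-numbered arrays did not deviate together (correlations across probes of -0.087, 0.090, 0.0031 and 0.0996), nor did every array correlate best with its own number. With the replicate number as a block, 7 probes passed over the array and 0 member probes. Dim readings of Axin2 probe 2 and Tnfrsf19 probe 2, not well above background on 2 arrays and 1 array, limit those probes, and both are absent under the filter on all 8 arrays.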

Other observations

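RefSeq promoters (GRCm38.p6, 250 bases before to 50 after the start) were listed for 7 of the 10 genes, with 10 promoters in all. The motif CTTTGA, the core of sites for Wnt-responsive TCF factors, searched on both strands, was found in 1 of the 10, a promoter of Tnfrsf19, and in 16.0% of 32851 promoters of the table. The motif CAGCTG, an E-box that reads the same on both strands, was found in the same 1 of 10 and in 16.3% of the table. A match is a description of these letters and not a site of binding.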
